A study of Mus musculus with 9 samples.

Results

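The genes described here carry iron, glycine, porphyrins and heme across the membranes of the cell, or take heme apart. They are 10 genes chosen by name of 20368 rows in the deposited table: Slc25a37, Slc25a38, Abcb10, Tmem14c, Flvcr1, Abcg2, Slc48a1, Hmox1, Blvra and Blvrb. Of these, 9 were matched by symbol and Flvcr1 by its Ensembl identifier, since the table lists it as Mfsd7b. Their RNA was measured by RNA sequencing in cells carrying both CD71, the transferrin receptor, and Ter119, a marker of the red cell lineage, sorted by flow cytometry from mouse spleen. All 9 libraries came from C57BL/6 mice aged 4 weeks, and the submitters call the sorted cells population II erythroblasts. There were 3 wildtype (WT), 3 heterozygous (HET, Dhh+/-) and 3 knockout (KO, Dhh-/-) libraries. Dhh encodes Desert hedgehog, a secreted signalling protein, and the comparisons ask how its loss from 1 or both alleles relates to RNA levels. How the Dhh allele was made, and whether each library came from a separate mouse, is not stated in the sources used here. The p-values therefore measure only the spread between these libraries.

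A red cell precursor makes more heme than almost any other cell, because each globin chain holds a heme group. Heme synthesis starts and ends inside mitochondria and runs through the cytosol in between, so its substrates and intermediates must cross mitochondrial membranes. Free heme is toxic: it can leave through exporters at the cell surface, and heme oxygenase opens its ring to biliverdin, which biliverdin reductases turn into bilirubin. In the spleen, the main site of heme breakdown is the red pulp macrophage, which digests old red cells and draws heme out of the digestive compartment.

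The recovered totals ran from 7.05 to 14.23 M reads per library. They fell into a shallower set of 4 libraries (WT replicates 1 and 2, HET replicate 2 and KO replicate 2) and a deeper set of 5 (WT replicate 3, HET replicates 1 and 3, KO replicates 1 and 3). These sets are not groups of the study. All 10 erythroid markers were detected at the testing level, with Tfrc, which encodes CD71, at a mean of 469 FPKM (here reads scaled by gene length and a library size factor). WT replicate 3 stood apart by low macrophage, B cell and T and NK cell markers, but not by neutrophil or megakaryocyte markers. Summed macrophage markers were at 156.5 FPKM there against 484 to 1648 FPKM in the other libraries, B cell markers at 90.8 against 350.5 to 1424 FPKM, and T and NK cell markers at 9.52 against 59.7 to 158 FPKM. The Dhh row held 0 for 8 libraries and 0.0267 FPKM for HET replicate 1, and so gives no check of the genotype labels.

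All 10 genes passed the filter of at least 1 FPKM in at least 3 libraries, which 9543 genes passed in all, and 9 of them exceeded it in every library. Blvrb had the highest mean level, with rank 17 among the tested genes, and its range did not overlap that of Slc25a37, which came next with rank 42 and a mean 1.75-fold lower. Tmem14c followed, 2.03-fold below Slc25a37 and again with no overlap. Abcb10 was below Tmem14c in 9 of 9 libraries, although their ranges overlapped. Slc48a1, Abcg2 and Slc25a38 then lay close together: Abcg2 exceeded Slc25a38 by 1.04-fold on average and in 6 of 9 libraries, and Slc48a1 exceeded Abcg2 in 4 of 9. Hmox1, Blvra and Flvcr1 had the lowest means, and Flvcr1 was 24.1-fold below Blvra with separate ranges.

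**Figure D1:**
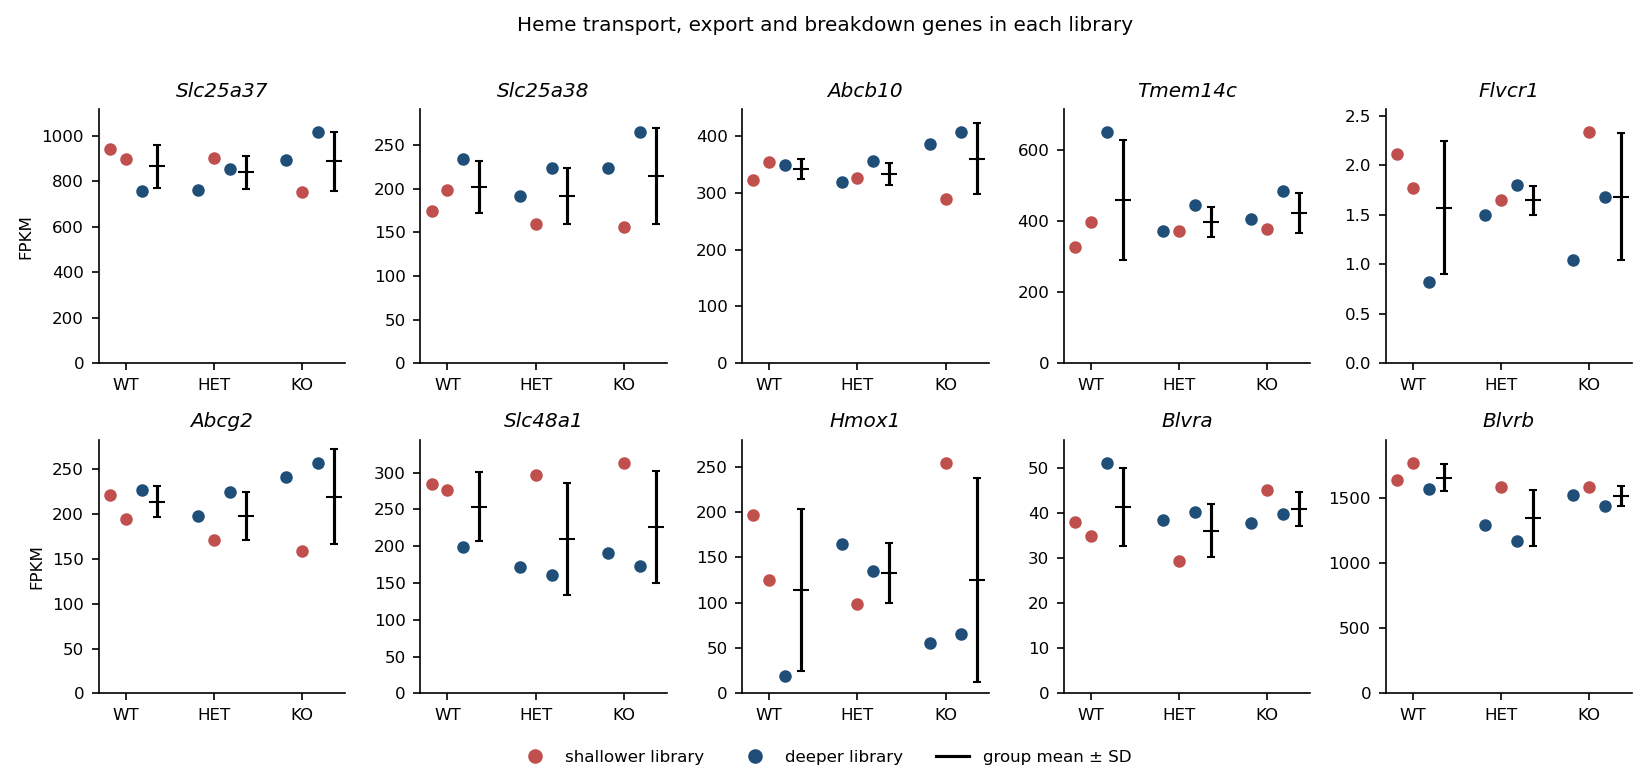
FPKM (vertical axes, linear, from 0) of each of the 10 genes in the 3 WT, 3 HET and 3 KO libraries; red points are the 4 shallower and blue points the 5 deeper libraries, and black bars give the group mean ± SD. The genotypes overlap in every panel, while red and blue points separate for Slc48a1 and Blvrb.

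Slc25a37 encodes mitoferrin 1, the carrier that brings iron through the inner mitochondrial membrane of red cell precursors (chr14:69241848-69285112, minus strand, mm10). Its level was 942, 897 and 758 FPKM in the WT libraries, 760.1, 902 and 856 FPKM in HET, and 894, 755 and 1015 FPKM in KO. The highest and the lowest value were both in KO libraries. Its coefficient of variation (CV, SD over mean) across the 9 libraries was 10.6%, against a median of 17.2% over the tested genes, and the KO-WT difference was 0.03 ± 0.15 (SE) on the log2(FPKM + 1) scale. All later differences are on this scale.

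Slc25a38 encodes the mitochondrial glycine carrier, which supplies the first step of heme synthesis and is mutated in a form of congenital sideroblastic anemia (chr9:120110374-120124504, plus strand). It was at 175, 198 and 234 FPKM in WT, 191, 159.6 and 224 FPKM in HET, and 223.5, 156 and 264.5 FPKM in KO. Within each genotype the lowest value was in a shallower library, and the 3 genotypes overlapped. Its group means were 202 ± 29.8, 192 ± 32.3 and 215 ± 54.7 FPKM (SD, n = 3) in WT, HET and KO.

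Abcb10 is an ATP-driven transporter of the inner mitochondrial membrane that is needed for hemoglobin production (chr8:123952459-123983122, minus strand). Its level was 322, 355 and 349 FPKM in WT, 319, 326 and 356 FPKM in HET, and 387, 289 and 407 FPKM in KO. KO replicates 1 and 3 were above the 6 libraries of the other genotypes and KO replicate 2 below them. The KO-WT difference was 0.06 ± 0.14. Tmem14c, an inner mitochondrial membrane protein that brings a heme precursor into the matrix (chr13:41016292-41022586, plus strand), was at 327, 398 and 648 FPKM in WT, 370.4, 372 and 446 FPKM in HET, and 406, 376 and 484 FPKM in KO. WT replicate 3 held its highest value and WT replicate 1 its lowest, so the WT libraries spanned both other genotypes.

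Flvcr1 is an exporter of heme and a choline transporter (chr1:191005847-191026158, minus strand). It was at 2.11, 1.77 and 0.823 FPKM in WT, 1.5, 1.64 and 1.79 FPKM in HET, and 1.04, 2.33 and 1.67 FPKM in KO, from 45 to 112 reads per library. Its lowest value was in WT replicate 3 and its highest in KO replicate 2. At this level the pseudocount of 1 makes its log2 differences understate its fold changes.

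Abcg2 is an exporter at the cell surface that carries porphyrins among many other molecules (chr6:58584523-58695676, plus strand). Its level was 221, 194 and 226.5 FPKM in WT, 197.5, 171 and 224 FPKM in HET, and 241, 159 and 257 FPKM in KO. As for Slc25a37, Slc25a38 and Abcb10, KO replicate 2 had the lowest value and KO replicate 3 the highest of all 9 libraries.

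Slc25a38, Abcb10 and Abcg2 rose and fell together over the libraries, so their promoters are shown. Over the 9 libraries, Pearson's r of log2(FPKM + 1) was 0.89 for Slc25a38 with Abcg2, 0.88 for Slc25a38 with Abcb10 and 0.85 for Abcb10 with Abcg2, given as a description, since these values share libraries, depth and scaling. The windows run 5′ to 3′ across the gene start in RefSeq (GRCm38.p6, the mm10 assembly) and lie at chr9:120110132-120110431 (plus strand), chr8:123983073-123983372 (minus strand) and, for the first of 3 Abcg2 windows, chr6:58584283-58584582 (plus strand). Capitals mark matches on either strand to GATAA (the GATA factor motif), CCNCNCCC (the Klf1 motif) or TGACNNNGC (the core of the antioxidant response element).
Slc25a38: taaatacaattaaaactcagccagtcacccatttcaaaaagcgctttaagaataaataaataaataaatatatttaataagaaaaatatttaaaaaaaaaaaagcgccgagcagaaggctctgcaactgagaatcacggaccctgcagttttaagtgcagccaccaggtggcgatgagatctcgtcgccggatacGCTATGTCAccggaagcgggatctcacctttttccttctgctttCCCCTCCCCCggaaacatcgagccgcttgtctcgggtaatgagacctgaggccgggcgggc
Abcb10: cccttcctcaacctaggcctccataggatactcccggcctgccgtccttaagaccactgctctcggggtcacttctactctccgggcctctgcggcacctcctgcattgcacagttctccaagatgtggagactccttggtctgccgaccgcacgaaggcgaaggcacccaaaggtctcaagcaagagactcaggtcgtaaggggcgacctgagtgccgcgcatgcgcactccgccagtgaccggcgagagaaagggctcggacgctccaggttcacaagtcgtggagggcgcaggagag
Abcg2: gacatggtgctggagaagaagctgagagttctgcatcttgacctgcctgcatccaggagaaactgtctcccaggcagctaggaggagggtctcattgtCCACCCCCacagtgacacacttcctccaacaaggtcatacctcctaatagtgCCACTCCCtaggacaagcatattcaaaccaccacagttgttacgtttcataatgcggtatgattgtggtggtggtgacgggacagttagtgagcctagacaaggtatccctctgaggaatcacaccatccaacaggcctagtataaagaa
The Slc25a38 window held 2 overlapping CCNCNCCC matches, at -11 and -9, and 1 TGACNNNGC match at -55 from the start. The Abcg2 window shown held 2 CCNCNCCC matches, at -152 and -100. The Abcb10 window held none of the 3 motifs, so no motif was present in all windows shown. Of the Abcg2 windows not shown, window 2 held 4 CCNCNCCC matches. Window 3 held 1 GATAA match at -204 and 1 CCNCNCCC match at -108. The Abcg2 window shown is the first by position, and which of the 3 starts these cells use was not tested. Of 32851 RefSeq windows of this length (300 bases), 49.5% held CCNCNCCC, 25.4% GATAA and 12.4% TGACNNNGC. Promoter windows were matched for 7 of the 10 genes, and a match is a run of letters, not a measured binding site.

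Slc48a1 encodes HRG1, which moves heme out of endosomes and lysosomes into the cytosol (chr15:97778520-97792692, plus strand, on the same chromosome as Dhh and 1098460 bases from it). It was at 285, 276.5 and 199 FPKM in WT, 171.5, 297 and 161 FPKM in HET, and 191, 313 and 174 FPKM in KO. The 4 shallower libraries held the 4 highest values, and the genotypes overlapped. An exon of Hdac7 on the opposite strand overlaps Slc48a1, and Hdac7 was at 1.33 to 7.46 FPKM. Whether the authors counted reads by strand is not given in the sources used here.

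Hmox1 encodes heme oxygenase 1, the inducible enzyme that opens the heme ring and releases its iron (chr8:75093621-75100589, plus strand). It was at 197, 125 and 19.3 FPKM in WT, 165, 98.6 and 135 FPKM in HET, and 55.3, 254.5 and 65.1 FPKM in KO. The highest value was 13.2-fold above the lowest, the WT and KO libraries each spread over more than the HET range, and its CV of 59.8% exceeded that of 96.3% of tested genes. Its group means were 114 ± 89.4, 133 ± 33.2 and 125 ± 112 FPKM (SD, n = 3) in WT, HET and KO. Hmox2, the constitutive heme oxygenase, was at a mean of 7.31 FPKM; it lies outside the rule for naming genes and was picked after its value was seen.

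Blvra, the main biliverdin reductase of adult tissues (chr2:127070665-127097084, plus strand), was at 37.9, 34.8 and 51.1 FPKM in WT, 38.5, 29.4 and 40.3 FPKM in HET, and 37.9, 45.0 and 39.8 FPKM in KO. WT replicate 3 was highest and HET replicate 2 lowest. Blvrb, a flavin and biliverdin reductase abundant in red cells (chr7:27447978-27466144, plus strand), was at 1638, 1774 and 1569 FPKM in WT, 1292, 1589 and 1169 FPKM in HET, and 1526, 1588 and 1440 FPKM in KO. Its HET replicates 1 and 3 were below every WT and KO library, and HET replicate 2 lay among them. Group means were 1660.0 ± 105 FPKM in WT, 1350.0 ± 216 FPKM in HET and 1518 ± 74.2 FPKM in KO (SD, n = 3).

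None of the 10 genes passed the test in any genotype comparison. With limma and Benjamini-Hochberg adjustment over 9543 genes, 0 genes (0%) had an adjusted p below 0.05 in KO against WT, 0 (0%) in HET against WT and 0 (0%) in KO against HET, and the lowest adjusted p were 0.9997, 0.9999 and 0.9996. At an unadjusted p below 0.05, limma gave 43, 113 and 56 genes and voom on the recovered reads 38, 91 and 53, with no member among them by limma; under alternatives Blvrb, Abcb10 and Abcg2 fell below it, and none passed after adjustment. Groups overlapped for all 10 members in all 3 comparisons, where 2.48%, 4.36% and 4.48% of tested genes had groups that did not overlap.

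In KO against WT, 7 of the 10 genes were above and 3 below 0, with a median difference of 0.02 against 0.0088 over all tested genes; without KO replicate 3 it was 3 above and 7 below. The carriers and mitochondrial transporters Slc25a37, Slc25a38, Abcb10 and Tmem14c had differences of 0.03, 0.06, 0.06 and -0.06, each smaller than its SE. The 95% interval of Slc25a37 ran from -0.31 to 0.37, and that of Abcb10 from -0.26 to 0.39. For Hmox1 the difference was 0.30 ± 0.83 with an interval from -1.57 to 2.17, so large changes either way were within the error. Slc48a1 had a difference of -0.20 ± 0.29 and Blvrb of -0.13 ± 0.14. Within the shallower libraries (2 WT, 1 KO) and the deeper ones (1 WT, 2 KO) the KO-WT difference was -0.28 and 0.33 for Slc25a37, -0.23 and 0.18 for Abcb10, -0.38 and 0.14 for Abcg2, and 0.69 and 1.59 for Hmox1, with no test. The first 3 of these genes thus changed sign between the sets.

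In HET against WT, 8 of the 10 genes were below and 2 above 0, with a median of -0.10 against -0.0020 over all tested genes. This split depended on the scaling: with equal summed FPKM, and also under quantile normalization, 6 were above and 4 below. Blvrb had the smallest unadjusted p of any of these genes in the 3 comparisons, 0.0555 with a difference of -0.31 ± 0.14 (adjusted p = 0.9999, limma), and 2 of the 3 HET libraries were below all WT libraries. Its interval ran from -0.63 to 0.0090. Hmox1 differed by 0.72 ± 0.83 and Slc48a1 by -0.31 ± 0.29. When the summed FPKM of each library was made equal, the median over all tested genes moved to 0.12, and the Blvrb difference was -0.16; under quantile normalization it was -0.08. Within the shallower libraries the Blvrb difference was -0.10 and within the deeper ones -0.35, and for Hmox1 these were -0.67 and 2.89, from 1 or 2 libraries per genotype and with no test.

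In KO against HET, 8 genes were above and 2 below 0, with a median of 0.11 against 0.0037 over all tested genes; without KO replicate 3, 4 were above and 6 below. Blvra differed by 0.19 ± 0.18, Blvrb by 0.18 ± 0.14 and Slc25a38 by 0.14 ± 0.21, while Hmox1 differed by -0.41 ± 0.83 and Flvcr1 by -0.0072 ± 0.25. For Hmox1 the difference was 1.36 within the shallower and -1.30 within the deeper libraries, and for Slc48a1 it was 0.08 and 0.13. The 3 comparisons share libraries, so the opposite signs of the last 2 medians are not separate observations.

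**Figure D2:**
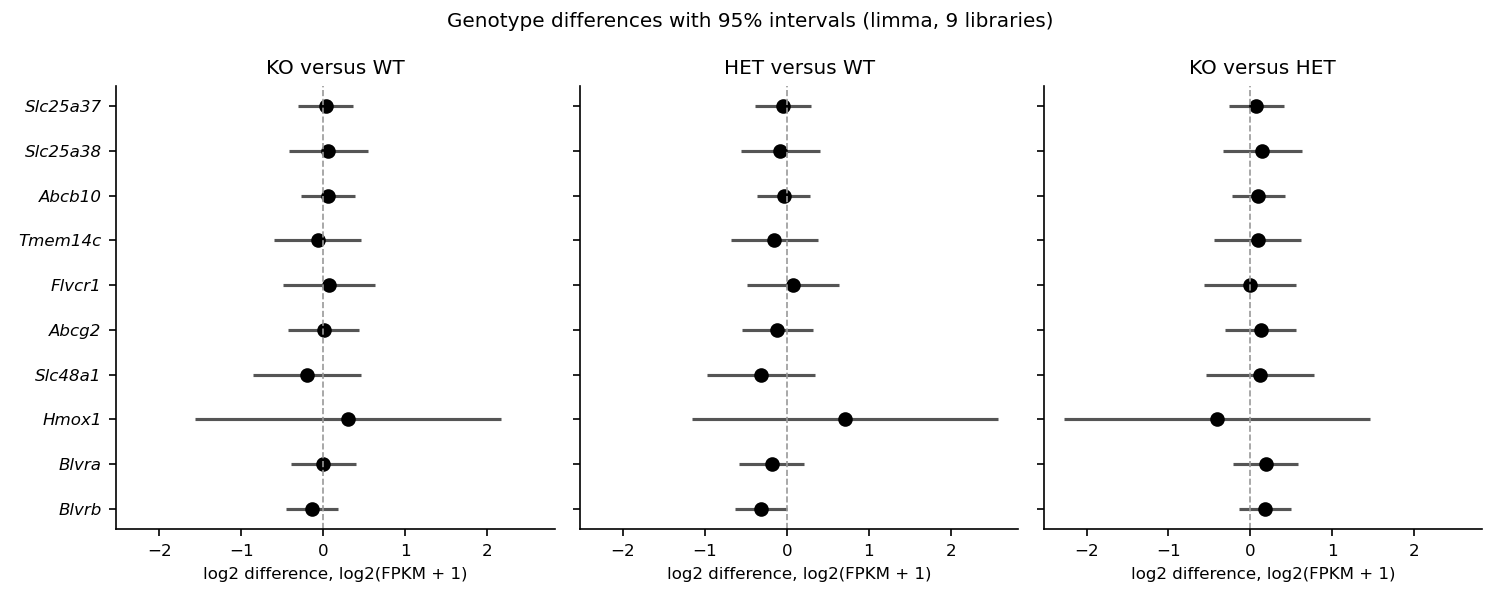
Difference in log2(FPKM + 1) (horizontal axes) for each of the 10 genes in KO against WT, HET against WT and KO against HET; points are limma estimates from 9 libraries and bars 95% intervals. Every bar crosses 0, and the Hmox1 bar is the widest in each panel.

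The variation that genotype did not follow was next set against the shallower and deeper libraries, with genotype kept in the model. Slc48a1 was higher in the shallower set by 0.70 ± 0.088, with means of 293 ± 16.1 FPKM (SD, n = 4) and 179 ± 15.5 FPKM (SD, n = 5), and was the 1 gene of the 10 past the threshold (adjusted p = 0.0141, limma). With equal summed FPKM Slc25a38 passed as well (-0.47, adjusted p = 0.0340, limma). Of all tested genes, 81 (0.849%) passed, 70 of them higher and 11 lower in the shallower set, and 619 passed with equal summed FPKM. Slc48a1 ranged from 276.5 to 313 FPKM in the shallower libraries and from 161 to 199 FPKM in the deeper ones, without overlap. Blvrb did not overlap either, at 1588 to 1774 against 1169 to 1569 FPKM, but its difference of 0.20 ± 0.089 did not pass (adjusted p = 0.167, limma) and turned to -0.24 ± 0.088 under quantile normalization. Of the tested genes 12.5% of tested genes had sets that did not overlap (5.66% with the shallower set above, 6.86% below). The Slc48a1 call was lost without HET replicate 1 (adjusted p = 0.0513), HET replicate 3 (0.0687), KO replicate 1 (0.0552) or KO replicate 2 (0.0702), with differences of 0.64 to 0.81 over all libraries left out in turn.

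Other members had differences that did not pass. They were -0.45 ± 0.10 for Slc25a38 (adjusted p = 0.0656, limma), -0.36 ± 0.11 for Abcg2 (0.0827), -0.40 ± 0.15 for Tmem14c (0.116) and 1.48 ± 0.54 for Hmox1 (0.112). Without HET replicate 2 the number of genes called in this comparison went from 81 to 2572, while it was 20 to 48 without any other library. Among these 2572 of 9543 tested genes were 5 of the 10 members: Slc25a38, Tmem14c, Flvcr1, Slc48a1 and Hmox1. With all libraries only Slc48a1 of these passed. With 1 library left out, the Hmox1 difference was 0.74 (without WT replicate 3) to 2.51 (without HET replicate 2), that of Tmem14c went to -0.18 without WT replicate 3, that of Flvcr1, 0.40 with all libraries, was 0.26 without WT replicate 3 and 0.60 without HET replicate 2, and that of Abcg2 was -0.21 without KO replicate 2. Slc25a37 had a difference of 0.03 ± 0.12.

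Of 10 late erythroid genes 4 were called higher in the shallower set and 0 lower, with a median difference of 0.12 over the list, and their part in the Slc48a1 difference was not tested. The called genes, of which Ube2l6 and Bnip3l lie outside the naming rule, were Bpgm at 1.40 ± 0.14, Alas2, the erythroid enzyme that opens heme synthesis, at 1.02 ± 0.12, Ube2l6 at 0.99 and Bnip3l, which is needed to clear mitochondria, at 0.87. The others did not pass: Trim10 was at 0.19, Slc4a1 at 0.05, Xpo7 at 0.0, Epb42 at -0.03, Trim58 at -0.05 and Ermap at -0.20. The summed level of the list, in which Alas2 weighs most among the called genes, was 16160 to 18120 FPKM in the shallower and 9330 to 11860 FPKM in the deeper libraries. In a bulk sample, fewer cells of a type and less RNA per cell cannot be told apart.

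**Figure D3:**
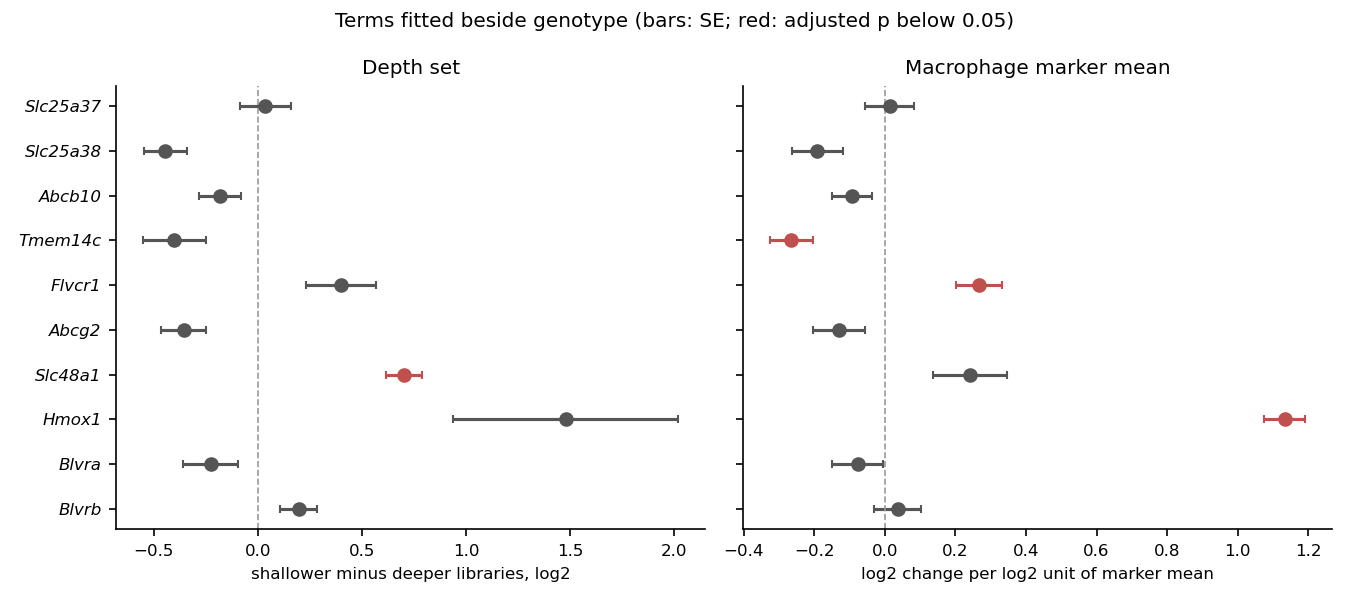
Slope of each of the 10 genes on the depth set (left, shallower minus deeper libraries, log2) and on the macrophage marker mean (right, log2 per log2 unit), each fitted beside genotype in 9 libraries; bars are SE and red marks an adjusted p below 0.05. Slc48a1 is red on the left at 0.70, and Hmox1, Flvcr1 and Tmem14c on the right at 1.13, 0.27 and -0.26.

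Hmox1 followed the markers of macrophages. The mean log2(FPKM + 1) of 14 tested macrophage markers was 6.14, 5.57 and 3.16 in WT, 5.62, 5.38 and 5.47 in HET, and 4.65, 6.43 and 4.70 in KO. The extremes, KO replicate 2 and WT replicate 3, were also the highest and the lowest Hmox1 library. With genotype in the model, Hmox1 rose by 1.13 ± 0.058 per log2 unit of the marker mean (adjusted p = 2.99e-06, limma), and it passed with each library left out in turn, at slopes of 1.11 to 1.20. With the marker mean held, its KO-WT difference was -0.04 ± 0.13, its HET-WT difference 0.11 ± 0.13 and its KO-HET difference -0.15 ± 0.13, against SEs of 0.83 without it.

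Of all tested genes 3294 (34.5%) passed on the marker mean, 1809 upward and 1485 downward, so the 3 of 10 members that passed are near the share over all genes. Flvcr1 rose by 0.27 ± 0.065 per log2 unit (adjusted p = 0.0129, limma) and Tmem14c fell by 0.26 on the same scale (SE 0.061, adjusted p = 0.00969, limma). Both calls were lost without WT replicate 3 and without WT replicate 1. Both held without WT replicate 2 (adjusted p = 0.0233 for Flvcr1 and 0.0210 for Tmem14c, limma). Without WT replicate 3 the Flvcr1 slope was 0.29 ± 0.12 (adjusted p = 0.134, limma) and the Tmem14c slope -0.16 ± 0.098 (0.276). Without WT replicate 1 they were 0.27 ± 0.082 (0.0507) and -0.23 ± 0.075 (0.065). After quantile normalization the Flvcr1 slope was 0.05 (adjusted p = 0.609, limma). Without WT replicate 3, 871 genes passed in place of 3294, and without WT replicate 1, 1953 did. The slopes of Slc48a1 (0.24, adjusted p = 0.0981, limma) and Blvrb (0.04, adjusted p = 0.687) did not pass. Without HET replicate 2 the Slc48a1 slope was 0.26 ± 0.058 and passed (adjusted p = 0.0104, limma), where 3376 of 9543 tested genes did. The Slc48a1 slope did not pass with any other library left out.

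The macrophage markers summed to 156.5 to 1547 FPKM in WT, 808 to 998 FPKM in HET and 484 to 1648 FPKM in KO. C1qa, a complement subunit made by macrophages, was at 12.2 to 198 FPKM, and Lyz2 was the most abundant marker with a mean of 197 FPKM. Vsig4 was the 1 of the 15 listed markers that was not tested, and it was listed at 0 in KO replicates 2 and 3; C1qa, Vsig4 and Tfrc are named outside the naming rule. In KO against WT 14 of 14 markers were above 0 with a median difference of 0.31; in HET against WT 13 were above (median 0.60) and in KO against HET 13 were below (median -0.23), none of them past the threshold. The Hmox1 differences of 0.30, 0.72 and -0.41 had the same signs. The markers were read in the same 9 libraries, so these counts are not separate observations. WT replicate 3 had a marker mean of 3.16, against 6.14 and 5.57 in WT replicates 1 and 2. Without WT replicate 3 the Hmox1 difference was -0.68 in KO against WT and -0.27 in HET against WT. Of all 9543 tested genes, 1809 were called upward on the marker mean. Among markers of other blood cells, 8 of 9 tested B cell markers, 9 of 9 T and NK cell markers and 4 of 10 neutrophil markers were called upward. Which of these cells, if any, gave the Hmox1 RNA was not tested.

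**Figure D4:**
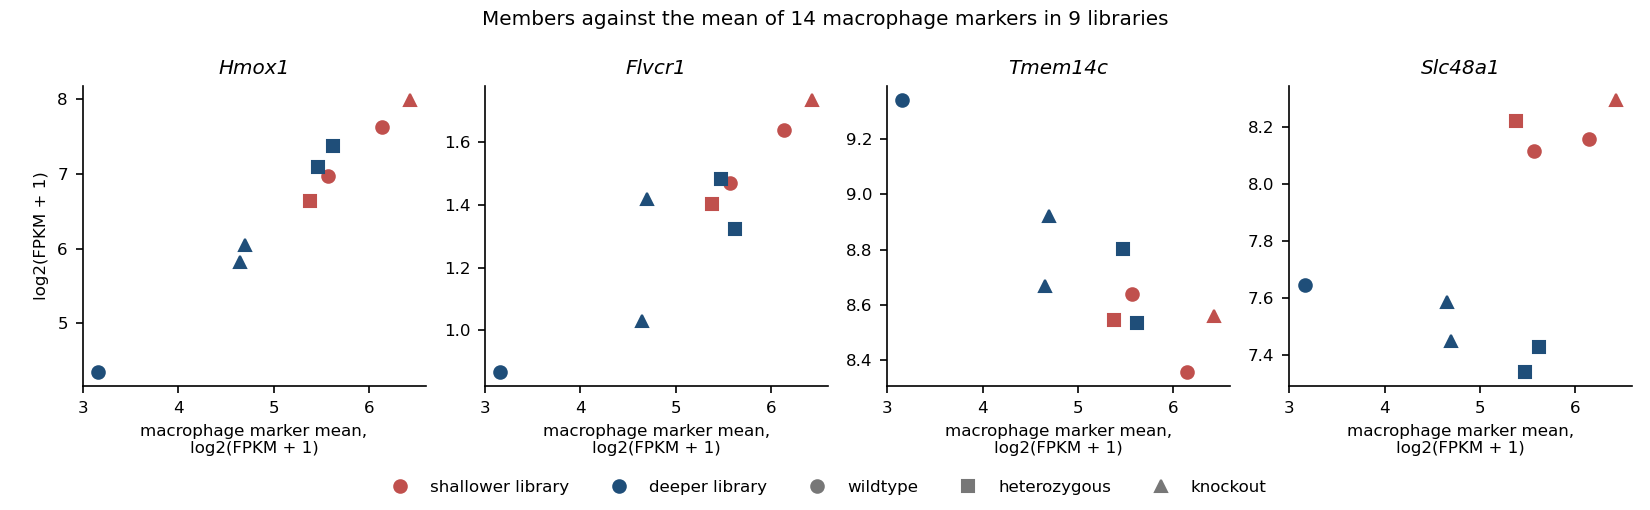
log2(FPKM + 1) of Hmox1, Flvcr1, Tmem14c and Slc48a1 (vertical axes) against the mean log2(FPKM + 1) of 14 macrophage markers (horizontal axes) in the 9 libraries; marker shapes give the genotype, red the shallower and blue the deeper libraries. Hmox1 lies along a line from WT replicate 3 (marker mean 3.16) to KO replicate 2 (6.43), whereas Slc48a1 splits by colour.

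With both terms and genotype in 1 fit, Slc48a1 passed on the depth set and Hmox1 on the marker mean. This fit was run on all 9 libraries only. With 1 term at a time and without HET replicate 2, Slc48a1 passed on the marker mean as well. Hmox1 then passed on the depth set as well (2.51, adjusted p = 0.00286, limma). Slc48a1 differed by 0.84 ± 0.12 between the depth sets (adjusted p = 0.0279, limma), and its slope on the marker mean was -0.10 ± 0.064. The Hmox1 slope on the marker mean was 1.26 ± 0.071 (adjusted p = 0.000107, limma), and its depth set difference was -0.31 ± 0.13 (adjusted p = 0.563). On the marker mean Flvcr1 had a slope of 0.25 ± 0.10 (adjusted p = 0.158) and Tmem14c of -0.24 ± 0.090 (0.122) in this fit, close in size to those without the depth set but not past the threshold.

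Across the 45 pairs of members, the other relations beyond 0.75 in size all involved Hmox1 or Slc48a1. Pearson's r over 9 libraries was 0.90 for Flvcr1 with Hmox1, -0.86 for Tmem14c with Hmox1, 0.79 for Slc48a1 with Blvrb and -0.81 for Slc25a38 with Slc48a1. Slc25a37 had an r of at most 0.62 with any other member, reached with Abcb10. These are descriptions over 9 libraries that share depth, sort and scaling.

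**Figure D5:**
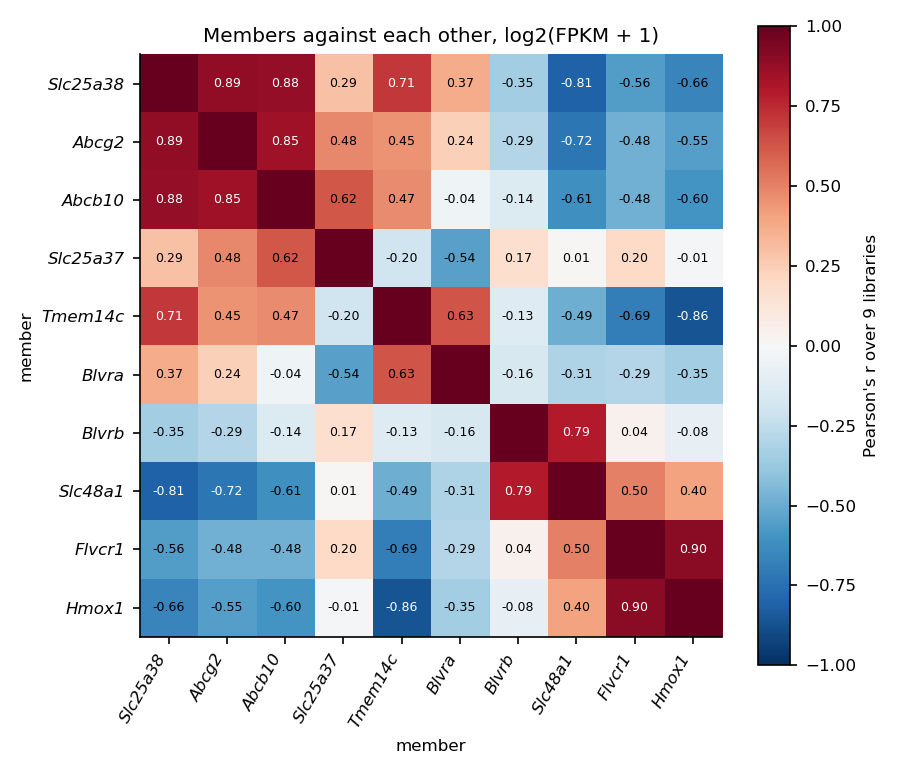
Pearson's r of log2(FPKM + 1) over 9 libraries between each pair of the 10 genes (both axes list genes; colour from -1 in blue to 1 in red). Slc25a38, Abcg2 and Abcb10 form a red block at 0.85 to 0.89, and Flvcr1 with Hmox1 another at 0.90.

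By the same measure the genes most like Slc48a1 were Slc25a39, a mitochondrial glutathione carrier (r = 0.996), and Bpgm, which makes the hemoglobin regulator bisphosphoglycerate (0.986). Those most like Hmox1 were Treml4 (0.997) and Inppl1 (0.996). Those most like Slc25a38 were Spsb3 and the mitotic kinesin Kif2c (both 0.985), and those most like Abcg2 were Cgrrf1 (0.982) and the mitotic kinesin Cenpe (0.981). Abcb10 was most like Ank and Srsf1 (both 0.979), Tmem14c like Uqcrfs1 (0.982) and Pak1ip1 (0.977), and Flvcr1 like Nin (0.988) and Cmtm7 (0.983). For Slc25a37 they were Trim28 (0.947) and Dcun1d1 (0.935), for Blvra Hprt (0.964) and Parl (0.939), and for Blvrb Max and Bola3 (both 0.941). Each gene was picked as the highest of those tested, so its r is a description of the choice and not a test.

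The genes around these 10 in heme handling also gave no genotype call in any of the 3 comparisons. All 8 heme synthesis enzymes were tested, with median differences of -0.03 in KO against WT, -0.15 in HET against WT and 0.10 in KO against HET. Alas2 had a mean of 4944 FPKM and was the 1 enzyme called between the depth sets. Of 12 other mitochondrial iron, porphyrin and heme carriers and partners, all tested, Slc25a39 (991 FPKM) and Tspo2 (596 FPKM) were the most abundant. Slc25a39 was higher in the shallower set by 1.00 ± 0.10 (adjusted p = 0.00664, limma).

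Of 13 other genes of heme uptake, export, binding and breakdown, 8 were tested. The most abundant were Hebp1, a cytosolic heme binding protein (211 FPKM), and Lrp1, the receptor for the heme-hemopexin complex (18.1 FPKM). On the macrophage marker mean, where 34.5% of all tested genes were called, 5 of the 8 were called upward and 1 downward, with a slope of 0.90 for Lrp1. Of 16 regulators and targets of Bach1 and Nrf2, the repressor and the activator of Hmox1 transcription, 14 were tested. The ferritin chains Fth1 (2291 FPKM) and Ftl1 (1632 FPKM) were the most abundant, and Ftl1 was higher in the shallower set by 0.73 ± 0.09 (adjusted p = 0.0133, limma). On the marker mean 1 of the 14 rose and 1 fell, below the 34.5% of all tested genes. They were the iron exporter Slc40a1 at a slope of 0.43 (adjusted p = 0.000385, limma) and Gclc, the catalytic subunit of the first enzyme of glutathione synthesis, at -0.18 (adjusted p = 0.00933), both named after their values were seen.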

How the data were processed

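The deposited table gives 1 value of FPKM type per gene and library for 9 libraries. The authors' values are scaled by library size factors and gene length, and per the submitters' processing notes the tools were TopHat, Picard and DESeq2 and the build mm10, with no versions or roles. No source used here gives the annotation, strand setting or read layout. Within each gene the values are whole multiples of a step per library, so reads were recovered for all 14147 genes above 0 in at least 2 libraries (tolerance 0.05 read); 787 rows above 0 in 1 library gave none. Totals were 7.05 to 14.23 M reads.

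Genotypes were compared with limma 3.58.1 (R 4.3.3, empirical Bayes with trend) on log2(FPKM + 1), over 9543 genes at 1 FPKM or more in at least 3 libraries, with all 9 libraries in 1 fit and Benjamini-Hochberg adjustment (threshold 0.05). The FPKM values were used as deposited. The fits on depth set (split at the widest gap in recovered reads) and on both terms together, and their alternatives, were chosen after seeing the data. Positions are from GENCODE M21 on mm10. The scripts were tested on simulated data. The same replicate numbers in KO and HET deviated together weakly (correlations 0.20, 0.18 and 0.41 across genes), as a hint from the data. In both genotypes replicates 1 and 3 are deeper and 2 shallower, so a pairing cannot be told apart from depth. The main fit used no pairing, and the numbers entered only as the replicate block, an alternative with a term for each number.

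The members and lists were chosen with earlier results of these data known. All 10 members are named; of each companion list those called in a genotype comparison, up to 4, or otherwise the 2 most abundant; for each member the 2 genes of highest Pearson's r; of a marker list the most abundant. 1 further gene that this rule would name is not reported here, and genes named outside the rule are stated as such. The companion lists are heme synthesis, mitochondrial carriers, heme uptake and export, and Bach1 and Nrf2 genes; the marker lists are erythroid, late erythroid, macrophage, B cell, T and NK cell, neutrophil and megakaryocyte. Of the last, 3 of 9 were tested and 0 were called by genotype. Alternatives were other pseudocounts, filters and scalings, no trend, libraries of the pair alone, the replicate block, a depth term, a macrophage marker covariate, voom on recovered reads, and each library left out.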

Additional observations from a re-analysis of the deposited data

How the results depend on the processing

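In all 3 comparisons 0 genes and 0 members were called under every planned and added alternative, each library left out included, and with the replicate block (0 genes, 0 members); the block changed no call. Of 387 member differences under alternatives other than leaving out a library, 35 changed sign, and 33 more did with a library left out; in all 68 the reported difference was smaller than its SE. Under quantile normalization the log2 differences that changed sign were, in KO-WT Tmem14c 0.016, Flvcr1 -0.025 and Blvrb 0.031; in HET-WT Slc25a37 0.26, Slc25a38 0.087, Abcb10 0.12, Tmem14c 0.050, Flvcr1 -0.076 and Abcg2 0.067; in KO-HET Slc25a37 -0.051, Tmem14c -0.035 and Flvcr1 0.051. With equal summed FPKM the log2 differences that changed sign were, in KO-WT Tmem14c 0.0014; in HET-WT Slc25a37 0.10, Slc25a38 0.063, Abcb10 0.11 and Abcg2 0.026; in KO-HET Slc25a37 -0.0049. With the macrophage marker covariate the log2 differences that changed sign were, in KO-WT Tmem14c 0.017, Flvcr1 -0.011 and Hmox1 -0.040; in HET-WT Slc25a38 0.021, Abcb10 0.013 and Flvcr1 -0.064; in KO-HET Flvcr1 0.054. With read depth as a term the log2 differences that changed sign were, in KO-WT Slc25a38 -0.019, Abcg2 -0.057 and Blvra -0.042; in KO-HET Flvcr1 0.0077. With the depth set as a term the log2 differences that changed sign were, in KO-WT Slc25a38 -0.085, Abcg2 -0.11, Slc48a1 0.037 and Blvra -0.073. With a pseudocount of 5 the 1 sign change was, in KO-HET Flvcr1 0.0036. With voom on recovered reads the 1 sign change was, in KO-WT Blvra -0.0088. With 1 library left out, the KO-WT differences of genes that changed sign ranged from -0.070 to 0.14 for Slc25a37, from -0.10 to 0.28 for Slc25a38, from -0.032 to 0.21 for Abcb10, from -0.27 to 0.22 for Tmem14c, from -0.16 to 0.25 for Flvcr1, from -0.12 to 0.22 for Abcg2, from -0.68 to 0.96 for Hmox1 and from -0.11 to 0.16 for Blvra. With 1 library left out, the HET-WT differences of genes that changed sign ranged from -0.14 to 0.027 for Slc25a37, from -0.20 to 0.044 for Slc25a38, from -0.36 to 0.13 for Tmem14c, from -0.15 to 0.23 for Flvcr1 and from -0.27 to 1.37 for Hmox1. With 1 library left out, the KO-HET differences of genes that changed sign ranged from -0.028 to 0.19 for Slc25a37, from -0.023 to 0.36 for Slc25a38, from -0.014 to 0.18 for Tmem14c, from -0.18 to 0.17 for Flvcr1, from -0.0067 to 0.34 for Abcg2 and from -0.15 to 0.39 for Slc48a1. The equal sum moved the median of all genes to 0.064, 0.12 and -0.066 in KO-WT, HET-WT and KO-HET. Unadjusted p below 0.05 went from 43 to 252 genes without KO replicate 2 and 228 without WT replicate 3 in KO-WT, and from 56 to 499 without KO replicate 2 in KO-HET, Abcb10 and Abcg2 included, and from 113 to 354 without WT replicate 1, 293 without WT replicate 3 and 662 with the depth set as a term in HET-WT. Blvrb in HET-WT had an unadjusted p of 0.0295 with the block, 0.0150 with read depth as a term, 0.0423 with a filter of 5 FPKM and 0.00858 without HET replicate 2, and in KO-HET 0.0414 without HET replicate 2; a filter of 5 FPKM removed Flvcr1 and left 6490 genes. In KO-WT the same replicate numbers had correlations of -0.57, 0.51 and 0.33, and in HET-WT of 0.13, 0.18 and 0. Signs and sizes thus varied by number, and no pairing was read from them. The cause of the sign changes was not tested. With 3 libraries per genotype and 45 to 112 reads, Flvcr1 has the least depth.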
